A study of Bos taurus and Sus scrofa with 6 samples.

Results

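The genes of lactate supply examined here were the lactate dehydrogenase subunits LDHA, LDHB and LDHC, the phosphoglycerate kinases PGK1 and PGK2, the glucose transporters SLC2A1 and SLC2A3, and the monocarboxylate transporters SLC16A1 and SLC16A3. These 9 genes were picked by symbol from the gene table of each species. No measured value entered the rule, although the genes were chosen with earlier results of these data known. In cattle 8 of the 9 symbols were listed among 19994 genes, without PGK2. In pig 7 were listed among 22694 genes, without SLC2A1 and SLC2A3. Genes whose symbol was not listed in a species were not analysed here in that species.

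Glucose enters cells through carriers such as SLC2A1 (GLUT1) and SLC2A3 (GLUT3) and is broken down by glycolysis, in which phosphoglycerate kinase catalyses an ATP-forming step, to pyruvate. Lactate dehydrogenase interconverts pyruvate and lactate as a tetramer. The LDHA subunit is known for tissues that make lactate, LDHB for tissues that oxidise it, and LDHC is made in the testis. Lactate crosses membranes through monocarboxylate carriers, of which SLC16A1 (MCT1) works in uptake and release and SLC16A3 (MCT4) is known for release from glycolytic cells. In the seminiferous tubule, Sertoli cells are known to take up glucose and to pass lactate to the germ cells, which use it as fuel. PGK1 is X-linked, whereas PGK2 is an autosomal copy without introns that is switched on during spermatogenesis.

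Transcripts were counted in single cells of testes removed by castration from 3 Holstein cattle (age 4.5 months) and 3 pigs of mixed breed (age 3 months), all prepubertal, with no treatment and no altered allele named in the labels. The tissue was digested with trypsin and collagenase, live cells were loaded on a droplet device, and each animal gave 1 library. In this assay each captured transcript 3′ end is tagged with a cell barcode and a molecule tag (unique molecular identifier, UMI). Copies made by PCR then count as 1 molecule, and a value does not grow with transcript length. Levels are given as CPM, the UMIs of a gene per 1000000 UMIs summed over the cells of a type in an animal, in which deeply sequenced cells weigh more and which say nothing of the amount of RNA per cell.

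Libraries held 5805223 to 53325608 UMIs in cattle and 6245189 to 40099873 in pig, and 17482 and 9206 cells were kept, respectively. Germ-like cells numbered 83 to 218 per cattle animal and 220 to 701 per pig, and Sertoli-like cells 505 to 2368 and 210 to 2258. Germ-like cells were deeper, with median UMIs of 3514 to 16908 in cattle and 2816.5 to 15001.5 in pig, against 1228 to 6257 and 853 to 4941 in Sertoli-like cells. The germ marker DDX4 lay at 44.3, 71.9 and 89.8 CPM in germ-like cells of cattle 1, 2 and 3 and at 0 to 0.745 CPM in their Sertoli-like cells. In pig it lay at 46.9, 104 and 68.8 CPM against 1.85, 1.10 and 7.21 CPM. The 8 listed Sertoli markers summed to 1313, 1220 and 1390 CPM in Sertoli-like and to 52.2 to 58.2 CPM in germ-like cells of cattle, with INHBB at 0 in both. Pig Sertoli markers, 10 of 10 listed, summed to 16781, 24340 and 20966 CPM in Sertoli-like cells and to 1101, 1367 and 215 CPM in germ-like cells. The pig germ markers, 9 of 10 listed, summed to 1179, 1323 and 991 CPM in germ-like cells, near those Sertoli marker sums in pigs 1 and 2. In pig Sertoli-like cells the defining marker AMH was near 0 (0.898 to 1.85 CPM) and AARD was at 0, while SOX9 lay at 276 to 391 CPM. CLDN11 lay at 621 to 1381 CPM there, so most of the sum came from other listed markers. Between 9 and 71 cell barcodes were shared by a pair of libraries. Mitochondrial UMIs took 2.97% to 9.51% in Sertoli-like and 1.32% to 4.396% in germ-like cells of cattle, and 1.29% to 2.43% and 1.43% to 3.42% in pig, and their part in the results was not tested. Each animal counts as 1 replicate. The main fits treat the sums of an animal as unrelated, so their p-values measure the spread between animals within a cell type. They do not measure the spread of the difference within animals. Fits with the animal as a replicate block are given where they changed a call of a member.

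The pig genes were located on Sscrofa11.1, the build of the pig files, with the RefSeq annotation. LDHA (ENSSSCG00000013366; chr2:40814163-40827284, minus strand, 8 exons) and LDHC (ENSSSCG00000013363; chr2:40748567-40810114, minus strand, 8 exons) lie side by side. The LDHC locus overlaps LOC110259293 on the plus strand. LDHB (ENSSSCG00000000576) has 8 exons at chr5:51810932-51831218 on the plus strand. The symbol LDHB also stands at a partial, single-exon locus at chr2:12988754-12990033, whose coding bases were 99.2% identical (997 of 1005), so that reads of LDHB could be split between the loci and its counts are uncertain to that extent. PGK1 (ENSSSCG00000012440) has 11 exons at chrX:62187472-62210321 on the plus strand, and PGK2 (ENSSSCG00000001738) is a single exon at chr7:43839239-43840892 on the minus strand. SLC16A1 (ENSSSCG00000006771; chr4:107510920-107547609, plus strand, 4 exons) overlaps LRIG2 on the minus strand, and SLC16A3 (ENSSSCG00000024018) lies at chr12:796882-807480 on the minus strand with 5 exons. The cattle files identify the genes as ENSBTAG00000008683 (LDHA), ENSBTAG00000019603 (LDHB), ENSBTAG00000002488 (LDHC), ENSBTAG00000000894 (PGK1), ENSBTAG00000009617 (SLC2A1), ENSBTAG00000004556 (SLC2A3), ENSBTAG00000015107 (SLC16A1) and ENSBTAG00000017461 (SLC16A3). A cattle genome of the files' build was not used here.

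The isoform results below rest on telling near relatives apart, and the first 60 coding bases of the pig genes show how far they differ. The sequences are RefSeq Sscrofa11.1 sense-strand DNA, 5′ to 3′ from the start codon, and capitals mark bases that differ from LDHA (in LDHB and LDHC) or from PGK1 (in PGK2) in an alignment of the coding sequences. The LDHB alignment has gaps that are not printed, so its bases do not all stand under their LDHA partners. Capitals there also mark bases without a partner.
LDHA: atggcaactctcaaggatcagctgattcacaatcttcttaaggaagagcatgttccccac
LDHB: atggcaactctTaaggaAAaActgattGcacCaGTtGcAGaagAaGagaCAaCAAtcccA
LDHC: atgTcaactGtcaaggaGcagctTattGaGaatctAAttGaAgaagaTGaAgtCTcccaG
PGK1: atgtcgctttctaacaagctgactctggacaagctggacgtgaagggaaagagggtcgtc
PGK2: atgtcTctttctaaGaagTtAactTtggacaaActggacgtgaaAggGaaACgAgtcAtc
These bases lie at chr2:40822926-40822985 (LDHA, minus strand), chr5:51814049-51814108 (LDHB, plus strand), chr2:40809414-40809473 (LDHC, minus strand), chrX:62187558-62187617 (PGK1, plus strand) and chr7:43840710-43840769 (PGK2, minus strand). Over the whole coding sequence LDHA was 69.6% identical to LDHB (695 of 999 aligned bases) and 76.8% to LDHC (767 of 999). PGK1 and PGK2, both with 1254 coding bases, were 83.9% identical (1052 of 1254). Reads from the 3′ end of a transcript need not cover these bases.

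Sertoli-like cells carried more PGK1 and less LDHA and LDHC than germ-like cells in both species, the comparison named by the rule. LDHB was called higher in Sertoli-like cells of both, but the pig groups overlapped and the pig call held in only 8 of 14 other settings. In cattle, SLC2A1 was also higher and SLC2A3 lower in Sertoli-like cells, and in pig PGK2 and SLC16A1 were lower. SLC16A3 passed the test in neither species and SLC16A1 not in cattle. All 8 cattle and 7 pig members passed the filter of 10 UMIs over the 6 sums. In cattle 3 members were called higher and 3 lower in Sertoli-like cells at an adjusted p of 0.05, against 19.2% of the 13077 genes tested called higher and 32.1% called lower. In pig 2 were called higher and 4 lower, against 19.7% and 23.4% of 14623 genes. The median log2 fold change of the members was -0.33 in cattle and -1.37 in pig, beside -0.32 and -0.16 over all genes tested. Fold changes come from edgeR fits with TMM scaling, which sets the bulk of the genes near 0, and leaving it out shifted the log2 values of cattle by -0.88 and those of pig by -0.38. Relative to log2 ratios of CPM, a fitted value is thus higher by about that much. Without TMM, 1327 genes were called higher and 6531 lower in cattle (with it 2508 and 4193), and 2084 and 4675 in pig (with it 2881 and 3424).

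**Figure D1:**
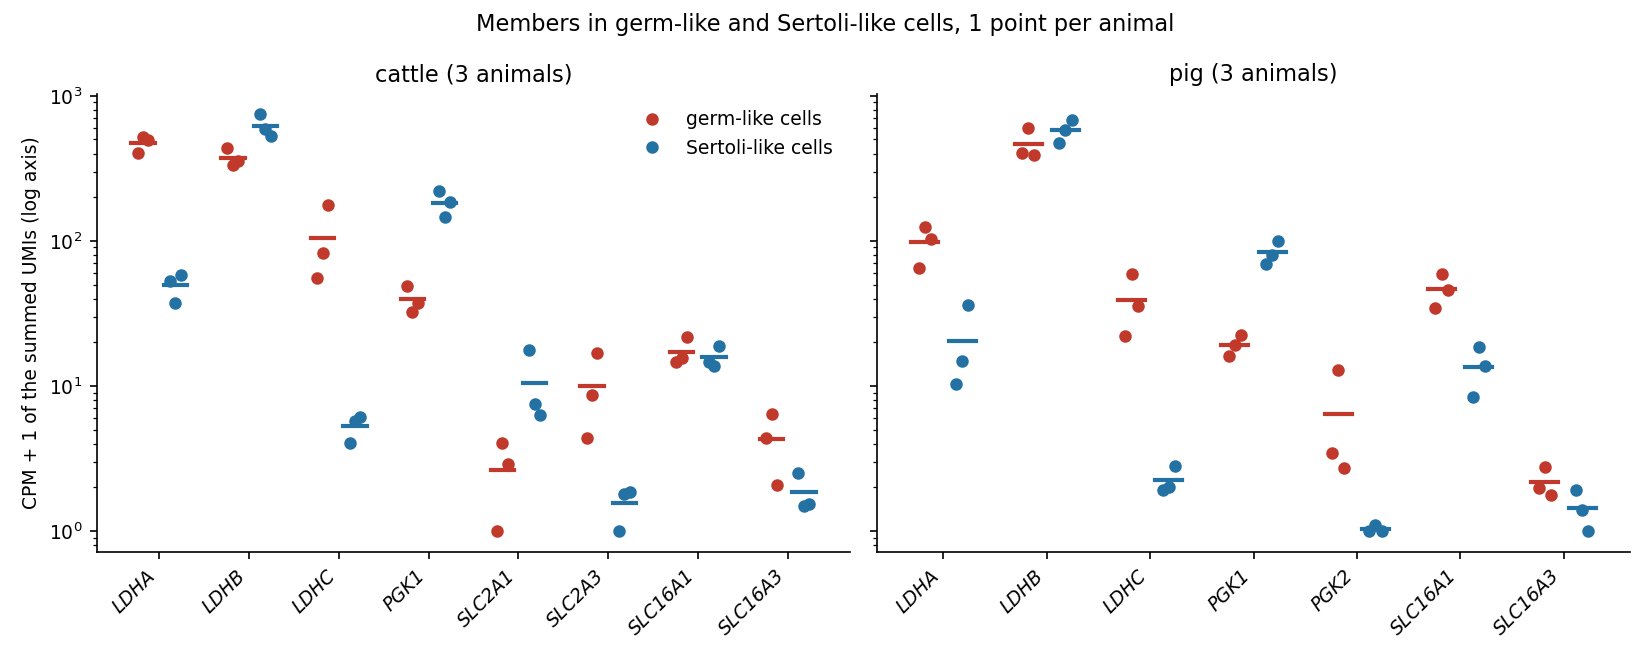
Level of each gene in germ-like and Sertoli-like cells of each animal, as CPM + 1 on a log axis (cattle left, pig right), with 1 point per animal and a bar at the mean of 3. LDHA and LDHC points of germ-like cells lie above all Sertoli-like points in both species and PGK1 points below them, whereas pig LDHB and cattle SLC16A1 points overlap.

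LDHA, the muscle-type subunit, exceeded LDHB in germ-like cells of cattle 2 and 3, though not of cattle 1, and was a minor form in Sertoli-like cells. In germ-like cells it lay at 402, 517 and 496 CPM in cattle 1, 2 and 3 (mean 472 ± 61.2, SD, n = 3), and in Sertoli-like cells at 51.6, 36.3 and 57.6 CPM (48.5 ± 10.98). No Sertoli-like value came near the germ-like ones. The log2 fold change was -2.43 ± 0.28 (SE; adjusted p = 6.78e-05). Pig levels were lower in both cell types. There LDHA lay at 64.5, 124 and 101 CPM in germ-like cells (96.6 ± 29.99) and at 9.23, 13.9 and 35.2 CPM in Sertoli-like cells (19.4 ± 13.8), again without overlap, with a log2 fold change of -2.01 ± 0.39 (adjusted p = 0.00081).

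LDHB, the heart-type subunit, was abundant in both cell types. Cattle germ-like cells held 433, 331 and 352 CPM (mean 372 ± 54.1, SD, n = 3) and Sertoli-like cells 744, 587 and 523 CPM (618 ± 114), and every Sertoli-like value lay above every germ-like value. The log2 fold change was 1.60 ± 0.23 (SE; adjusted p = 0.00030), or 0.73 (adjusted p = 0.023) without TMM. In pig the values were 401, 596 and 390 CPM in germ-like cells (463 ± 116) and 474, 583 and 685 CPM in Sertoli-like cells (580 ± 106). The pig groups overlapped, since germ-like cells of pig 2 exceeded Sertoli-like cells of pigs 1 and 2. The pig call (log2 fold change 0.71 ± 0.26, adjusted p = 0.035) was lost without any 1 of the pigs (adjusted p of 0.073, 0.075 and 0.20 without pig 1, 2 and 3), without TMM (0.33, adjusted p = 0.29), with DESeq2 (0.60, adjusted p = 0.064) and without the filter (0.59, adjusted p = 0.073).

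LDHC, the testis subunit, was highest in germ-like cells among all cell types of both species. In cattle it lay at 54.6, 81.1 and 177 CPM in germ-like cells (mean 104 ± 64.3, SD, n = 3), from 16, 106 and 660 UMIs, and at 3.04, 4.70 and 5.11 CPM in Sertoli-like cells (4.28 ± 1.10). Germ-like levels differed between animals by more than LDHA or LDHB did, and yet all exceeded the Sertoli-like ones. The log2 fold change was -3.67 ± 0.51 (SE; adjusted p = 0.00021). Without cattle 3 it was -3.05 (adjusted p = 0.0032). Pig germ-like cells held 21.0, 58.4 and 34.7 CPM (38.1 ± 18.9) and Sertoli-like cells 0.923, 0.998 and 1.80 CPM (1.24 ± 0.488), with a log2 fold change of -4.63 ± 0.52 (adjusted p = 8.09e-06). When every barcode with at least 500 UMIs was used as a cell, the pig value was -3.21 (adjusted p = 0.0011) and the cattle value -2.88 (adjusted p = 5.04e-05).

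A single cell carried most of the LDHC of cattle 3. This germ-like barcode held 178182 UMIs, 4.77% of all germ-like UMIs of the animal, where the next deepest germ-like cell held 42619 and the median was 16908. It contributed 433 of 660 LDHC UMIs, 37 of 59 SLC2A3 UMIs, 25 of 77 SLC16A1 UMIs and 97 of 1853 LDHA UMIs, but 4 of 1313 LDHB UMIs. All 83 germ-like UMIs of PDHA2, the testis form of the pyruvate dehydrogenase subunit, came from it, as did 96 of the 102 UMIs of the glycolytic enzyme PGAM2. The barcode also held 12 UMIs of PRM2, a sperm protamine, and 10 of ACR, the acrosomal protease. Without it the germ-like level of LDHC in cattle 3 was 63.9 CPM, between the 54.6 and 81.1 CPM of the other two animals, and that of SLC2A3 was 6.19 CPM. Leaving out the cell with the most LDHC UMIs in each animal, a check chosen after seeing the data, gave a cattle LDHC log2 fold change of -2.71 (adjusted p = 0.00012) and a pig value of -4.46 (adjusted p = 8.00e-06). UMIs of LDHC were otherwise spread over many cells, with at least 1 in 14 of 83, 77 of 217 and 109 of 218 cattle germ-like cells and in 40 of 646, 86 of 220 and 249 of 701 pig germ-like cells. Whether that barcode holds 1 cell or several was not tested.

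The make-up of the lactate dehydrogenase transcripts shifted from a mix of LDHA and LDHB in germ-like cells to nearly pure LDHB in Sertoli-like cells. Of the UMIs of all 3 genes in cattle, LDHA took 45.2%, 55.7% and 48.4% in germ-like cells of animals 1, 2 and 3 and 6.46%, 5.77% and 9.83% in their Sertoli-like cells. LDHB took 48.7%, 35.6% and 34.3% against 93.2%, 93.5% and 89.3%. LDHC took 6.13%, 8.73% and 17.3% against 0.380%, 0.747% and 0.872%. Means therefore differed, Sertoli-like minus germ-like, by -42.4 percentage points for LDHA, 52.5 for LDHB and -10.0 for LDHC. Pig germ-like cells, summed over their clusters, held mostly LDHB, with 82.4%, 76.6% and 74.1%, against 97.9%, 97.5% and 94.9% in Sertoli-like cells. Pig LDHA took 13.2%, 15.9% and 19.3% against 1.91%, 2.32% and 4.87%, and LDHC 4.31%, 7.51% and 6.60% against 0.191%, 0.167% and 0.2497%. None of these 6 pairs of groups overlapped. Each gave p = 0.1 in a two-sided exact permutation test over animals, not paired by animal, the smallest p that 3 against 3 allows. The shares do not depend on the scaling of the libraries. Shares in germ-like cells rest on 261 to 3826 UMIs per cattle animal and 997 to 6109 per pig. Leaving out the cell with the most LDHC lowered the mean cattle LDHC share of germ-like cells from 10.7% to 6.93%. High LDHB shares were not particular to Sertoli-like cells (means 92.0% in cattle, 96.8% in pig). Cattle Leydig-, myoid- and endothelial-like cells had means of 97.7%, 96.6% and 90.1%, and pig myoid- and endothelial-like cells 93.5% and 92.8%. Macrophage-like cells had less, 60.5% in cattle and 66.3% in pig. Cattle free RNA, given below, was mostly LDHB too. It held 574, 811 and 416 UMIs of LDHB in animals 1, 2 and 3, against 37, 87 and 59 of LDHA and 2, 17 and 12 of LDHC. The part of free RNA in the Sertoli-like shares was not tested.

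**Figure D2:**
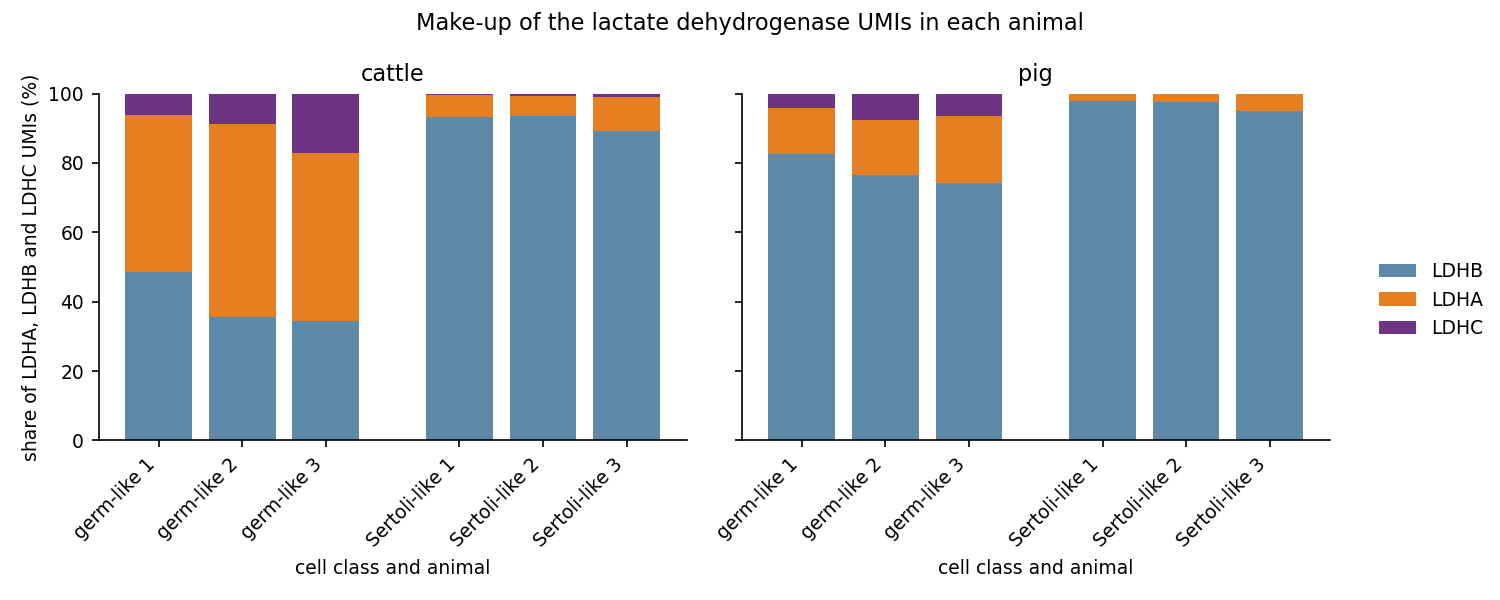
Stacked bars give the percent of the UMIs of LDHA, LDHB and LDHC that each gene took in germ-like and Sertoli-like cells of each animal (cattle left, pig right; 1 bar per animal and cell type). LDHB fills 89.3% to 97.9% of every Sertoli-like bar, 34.3% to 48.7% of the cattle germ-like bars and 74.1% to 82.4% of the pig ones.

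PGK1, the somatic and X-linked phosphoglycerate kinase, showed the largest rise among members in Sertoli-like cells of either species. In cattle it lay at 47.7, 31.4 and 36.4 CPM in germ-like cells (mean 38.5 ± 8.38, SD, n = 3) and at 219, 145 and 184 CPM in Sertoli-like cells (183 ± 36.8). The lowest Sertoli-like value was thus well above the highest germ-like value. The log2 fold change was 3.13 ± 0.27 (SE; adjusted p = 1.27e-05). Pig germ-like cells held 15.1, 18.1 and 21.5 CPM (18.2 ± 3.16) and Sertoli-like cells 68.3, 79.0 and 99.2 CPM (82.1 ± 15.7), again without overlap, with a log2 fold change of 2.51 ± 0.30 (adjusted p = 1.39e-05).

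PGK2, the germ cell phosphoglycerate kinase, was listed in pig and sparse there. Germ-like cells of pigs 1, 2 and 3 held 5, 41 and 20 UMIs (2.44, 11.98 and 1.72 CPM), and Sertoli-like cells held 1 UMI in all, in pig 2. The pooled ratio of germ-like to Sertoli-like CPM was 47.2, with an exact 95% counting interval of 8.18 to 1892. The fitted log2 fold change of -5.21 ± 1.21 (SE; adjusted p = 0.0031) depends on the prior count of the fit, and the call was lost without pig 2 (-5.97, adjusted p = 0.12). At least 1 PGK2 UMI was seen in 5 of 646, 12 of 220 and 18 of 701 germ-like cells, which does not limit the share of cells that express it, and 1 cell of pig 2 carried 26 of its 41 UMIs and 40 of the 200 LDHC UMIs of that animal. Without this cell PGK2 lay at 4.42 CPM in pig 2, and the log2 fold change without the top LDHC cell of each animal was -4.35 (adjusted p = 0.0047). With every barcode of at least 500 UMIs it was -3.32 (adjusted p = 0.022). As a share of the UMIs of both kinases, PGK2 made up 13.9%, 39.8% and 7.43% in germ-like cells and 0%, 0.126% and 0% in Sertoli-like cells (two-sided exact permutation p = 0.1, the smallest possible). This mean share in germ-like cells, 20.4%, was 10.7% without pig 2 and 13.7% without the top LDHC cells.

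The glucose carriers, measured in cattle alone, went opposite ways at low levels. SLC2A1 lay at 0, 3.06 and 1.88 CPM in germ-like cells (0, 4 and 7 UMIs) and at 16.7, 6.48 and 5.32 CPM in Sertoli-like cells. Each Sertoli-like value exceeded all germ-like values, and the log2 fold change was 2.74 ± 0.66 (SE; adjusted p = 0.0059), or 3.39 (adjusted p = 0.038) without cattle 2 and 1.95 (adjusted p = 0.033) without TMM. The 0 UMIs of cattle 1 germ-like cells allow up to 10.2 CPM (3 counts), which is above the Sertoli-like values of cattle 2 and 3. SLC2A3 lay at 3.41, 7.65 and 15.8 CPM in germ-like cells (1, 10 and 59 UMIs) and at 0, 0.810 and 0.851 CPM in Sertoli-like cells. Its log2 fold change was -2.87 ± 0.69 (adjusted p = 0.0057). The SLC2A3 call was lost without cattle 2 (-2.94, adjusted p = 0.069) or cattle 3 (-2.17, adjusted p = 0.19), and without the top LDHC cells it was -1.90 (adjusted p = 0.020). SLC2A3 made up 100%, 71.4% and 89.4% of the UMIs of both carriers in germ-like cells, from 1, 14 and 66 UMIs, and 0%, 11.11% and 13.8% in Sertoli-like cells (two-sided exact permutation p = 0.1, the smallest possible).

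SLC16A1, the lactate carrier MCT1, separated the cell types in pig and not in cattle. Cattle germ-like cells held 13.6, 14.5 and 20.6 CPM and Sertoli-like cells 13.7, 12.6 and 17.9 CPM, and the groups overlapped almost fully. The fitted log2 fold change of 0.65 ± 0.36 (SE; adjusted p = 0.16) changed sign without TMM (-0.20, adjusted p = 0.65). With the animal as a replicate block it was called (0.67, adjusted p = 0.034), as it was without the top LDHC cells (1.07, adjusted p = 0.028) and without cattle 1 (0.92, adjusted p = 0.028). In pig germ-like cells SLC16A1 lay at 33.7, 58.1 and 44.9 CPM (mean 45.6 ± 12.2, SD, n = 3) against 7.39, 17.5 and 12.6 CPM in Sertoli-like cells (12.5 ± 5.04), without overlap. The pig log2 fold change was -1.37 ± 0.36 (adjusted p = 0.0073), and the call was lost without pig 3 (-1.28, adjusted p = 0.057).

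SLC16A3, the lactate exporter MCT4, was near the detection limit in both cell types. It lay at 3.41, 5.36 and 1.07 CPM in cattle germ-like cells (1, 7 and 4 UMIs) and at 1.52, 0.486 and 0.532 CPM in Sertoli-like cells, and at 0.977, 1.75 and 0.776 CPM against 0.923, 0.399 and 0 CPM in pig. The groups overlapped in both species. Log2 fold changes were -1.31 ± 0.81 for cattle (SE; adjusted p = 0.20) and -0.95 ± 0.95 for pig (adjusted p = 0.44), so that differences of these sizes were not detectable at this depth. The cattle value passed the test without TMM (-2.19, adjusted p = 0.043) and was -0.08 (adjusted p = 0.97) without cattle 2. Its share of the UMIs of both lactate carriers was 17.3% ± 11.2 in germ-like and 5.53% ± 3.89 in Sertoli-like cells of cattle (two-sided exact permutation p = 0.2), and 2.48% ± 0.680 against 4.45% ± 5.88 in pig (p = 0.9).

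**Figure D3:**
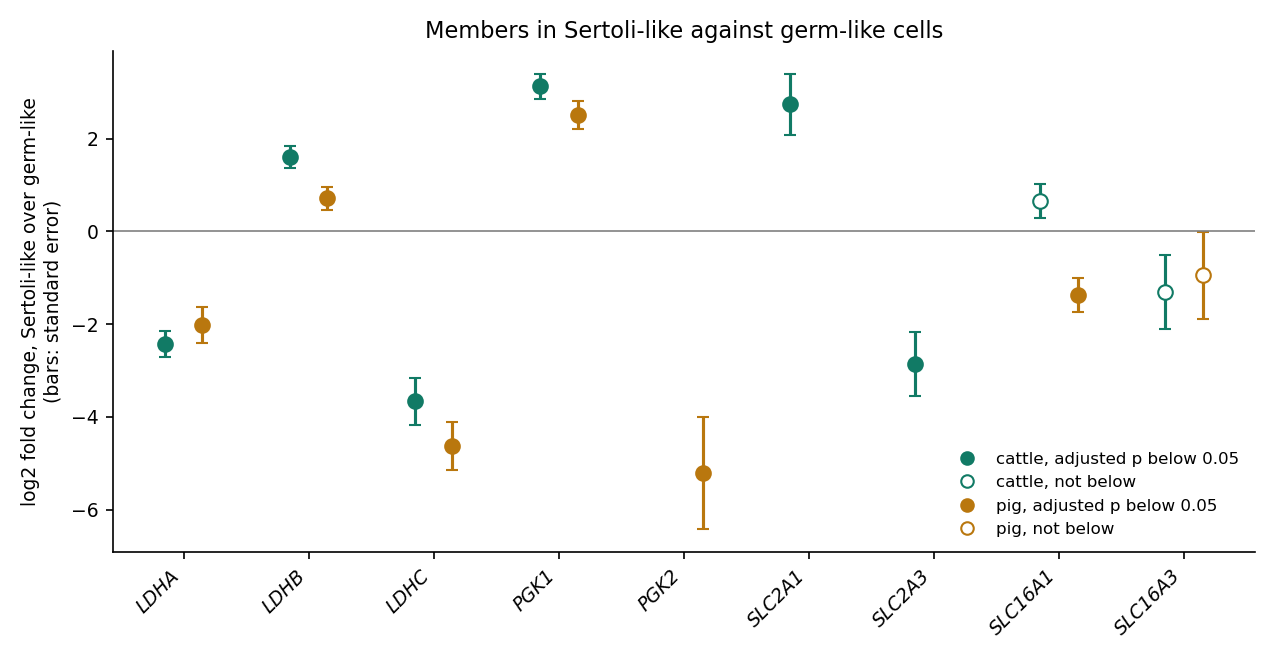
Fitted log2 fold changes of the members, Sertoli-like over germ-like cells, with standard errors as bars (green, cattle; ochre, pig; filled points, adjusted p below 0.05). PGK1 lies highest in both species, at 3.13 and 2.51, and SLC16A1 lies on opposite sides of 0, at 0.65 in cattle and -1.37 in pig.

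The difference between Sertoli-like and germ-like cells was compared between the species for the 6 members listed in both, by an interaction term over 12 sums. LDHB and SLC16A1 differed between cattle and pig, 2 of 6, against 21% of the 12442 shared genes. LDHB, whose pig call was not stable, was raised less in Sertoli-like cells of pig than of cattle, by -1.24 ± 0.34 on the log2 scale (SE; adjusted p = 0.014). That difference was lost without TMM (-0.55, adjusted p = 0.27), without cattle 2 or 3 (adjusted p of 0.10 and 0.062) and without pig 2 (0.091). SLC16A1 differed by -2.43 ± 0.51 (adjusted p = 0.0025) and was called in all 17 other settings, from -2.67 to -1.72. PGK1 (-0.95 ± 0.38, adjusted p = 0.086) and LDHC (-1.43 ± 0.81, adjusted p = 0.23) were called with the animal as a replicate block, at -0.97 (adjusted p = 0.0064) and -1.70 (adjusted p = 0.012). LDHC was also called without the top LDHC cells (-2.04, adjusted p = 0.028). For LDHA the difference was 0.06 ± 0.54 and for SLC16A3 -0.09 ± 0.87, and their sign turned in other settings. The median over the 6 members was -1.09, beside -0.08 over all genes, which was 0.59 without TMM. Without TMM the interaction term, pig minus cattle, was called positive for 2437 genes and negative for 790, against 1179 and 1431 with it. The species differed in age and breed and were aligned to different builds, which cannot be told apart from the species.

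Germ-like cells of pig fell into 5 clusters, and the members differed widely among them. The clusters were made without the members as variable genes, and their levels are a description. Cluster 7 (100 cells) was led by TEX101, PHF7, LYPD4 and LY6K, germ cell genes, with the meiotic gene SYCP1 at 665 CPM. LDHC lay at 283 CPM there, against 12.8, 25.5 and 20.2 CPM in clusters 5, 9 and 12 and 109 CPM in cluster 11. LDHB was low in clusters 7 and 12, at 46.6 and 51.4 CPM, and lay at 476, 739 and 680 CPM in clusters 5, 9 and 11. The split of LDHB was seen in pigs 1 and 3, and pig 2 had fewer than 20 cells in clusters 7 and 12. Pig 1 held 55.2 CPM in cluster 7, 58.6 CPM in cluster 12 and 469 and 583 CPM in clusters 5 and 11. Pig 3 held 32.8 and 49.0 CPM in clusters 7 and 12 and 792 and 692 CPM in clusters 9 and 11.

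LDHA ranged less, from 73.9 CPM in cluster 5 to 194 CPM in cluster 7. LDHA exceeded LDHB in cluster 7 (194 against 46.6 CPM) and, pooled over animals, in cluster 12 (79.0 against 51.4 CPM), the largest with 532 cells. In cluster 12 that order was seen in pig 3 (80.6 against 49.0 CPM, 393 cells). Pig 1 had the reverse there, with 18.5 CPM of LDHA (6 UMIs) against 58.6 CPM of LDHB (19 UMIs) in 120 cells. LDHC of cluster 7 was 77.3 CPM in pig 1 (37 cells) and 252 CPM in pig 3 (56 cells), with 46 of its 176 UMIs in the 7 cells of pig 2. PGK2 was at 61.0 CPM in cluster 7, from 38 UMIs of which 33 were in those 7 cells of pig 2, and at 22.1 CPM (2 UMIs) in pig 1 and 6.15 CPM (3 UMIs) in pig 3. Cluster 11 (210 cells), led by ELAVL2, PAGE4, STK31 and CLGN, had the most SLC16A1, at 71.8, 73.8 and 84.5 CPM in pigs 1, 2 and 3. Its LDHC lay at 58.3, 131 and 100 CPM and its PGK2 at 13.5, 9.62 and 5.28 CPM. Cluster 5 was 97.6% cells of pig 1, so its values are those of 1 animal.

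**Figure D4:**
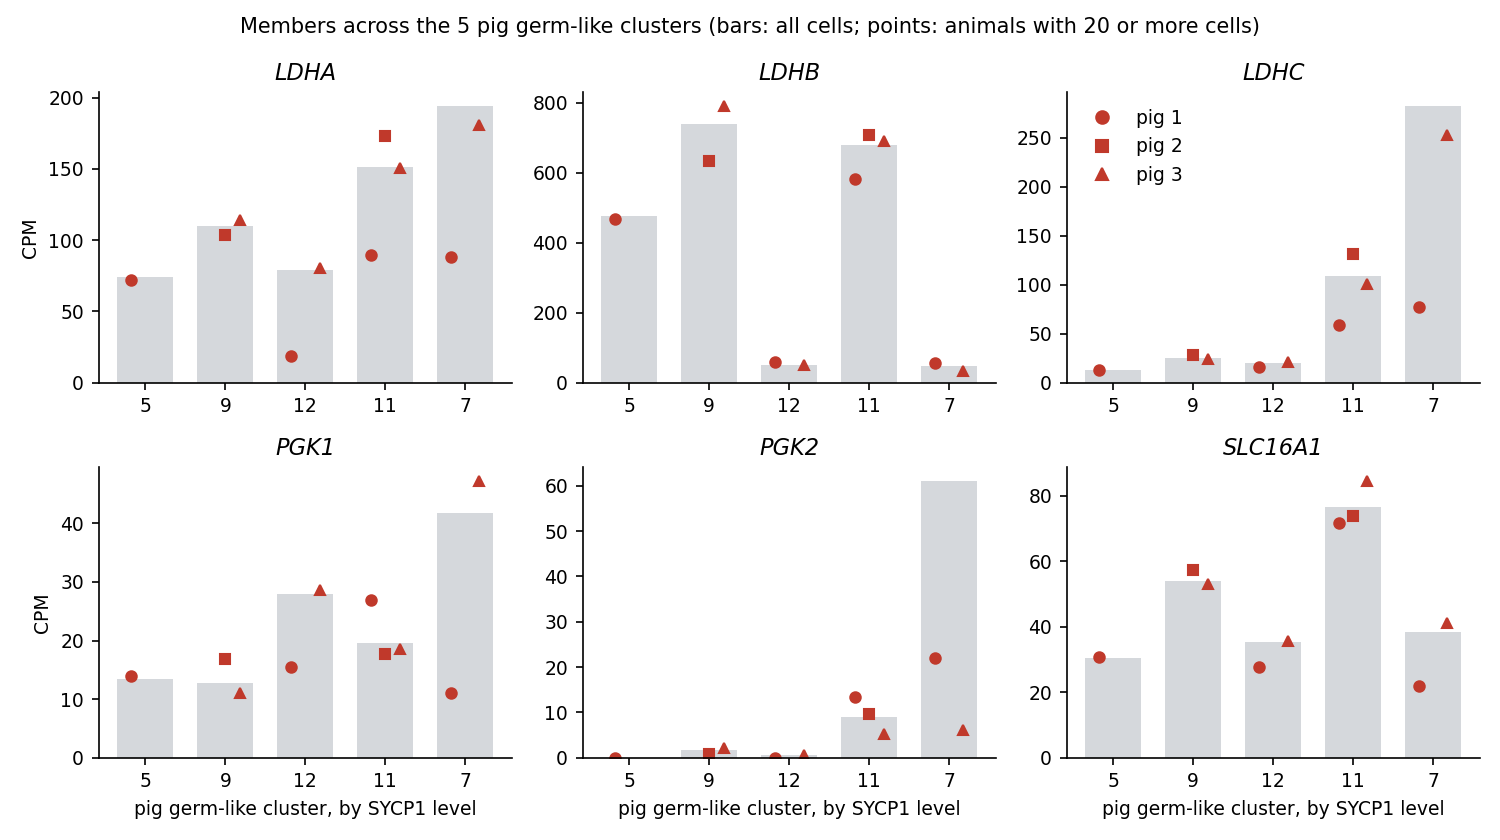
Level in CPM of 6 members in the 5 germ-like clusters of pig, ordered by SYCP1 (bars, all cells of a cluster; points, animals with at least 20 cells in it; the scale differs between panels). LDHB drops to 51.4 and 46.6 CPM in clusters 12 and 7, LDHC peaks at 283 CPM in cluster 7 and SLC16A1 at 76.7 CPM in cluster 11.

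Cattle germ-like cells formed 1 cluster of 518 cells, so a split of this kind was not described in cattle. Sertoli-like clusters were mostly cells of 1 animal each in pig, cluster 2 of pig 1 (96.7%) and cluster 21 of pig 3 (96.4%) among them. In cattle, cluster 4 held cells of cattle 1 alone (468). Cluster 0 was mostly cells of cattle 2 (1772 of 1848) and cluster 16 of cattle 3 (718 of 808). Differences between these clusters thus largely go with differences between animals. Cattle cluster 14 was shared, with 516 cells of cattle 2 and 547 of cattle 3. In cattle 2, LDHB lay at 475 CPM there and 632 CPM in cluster 0, and LDHA at 54.6 and 30.8 CPM. In cattle 3, LDHB lay at 456 CPM there and 600 CPM in cluster 16, and LDHA at 55.2 and 60.8 CPM. Clusters 8 and 19 were both mostly cells of pig 2, where LDHB lay at 593 and 572 CPM. LDHB lay between 460 and 759 CPM in the 4 cattle clusters and between 481 and 672 CPM in the 5 pig clusters, and LDHA between 31.5 and 58.5 CPM in cattle and between 9.49 (cluster 2) and 35.3 CPM (cluster 21) in pig. The dividing pig cluster, with TOP2A at 858 CPM, held LDHB at 526 CPM and LDHA at 17.5 CPM, within the range of the other clusters. A pig cluster of 332 cells, 96.4% of them from pig 2, was led by UCHL1, COX8C and ELAVL2 together with the Sertoli gene CLDN11 and stayed unnamed. Its levels were 44.3 CPM for LDHA, 552 CPM for LDHB, 11.3 CPM for LDHC, 61.7 CPM for PGK1 and 27.8 CPM for SLC16A1.

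Across all named cell types LDHC stood apart in germ-like cells and PGK1 was lowest there, while LDHA, LDHB and SLC16A1 were highest in different cell types in cattle and pig. Cattle LDHA was highest in germ-like cells (472 CPM), above macrophage-like cells at 137 ± 31.5 CPM without overlap. Macrophage-, lymphocyte- (89.0 CPM) and endothelial-like cells (87.3 CPM) overlapped, and Sertoli- (48.5), myoid- (20.1) and Leydig-like cells (7.08) followed, each below the one before without overlap. The endothelial-like value nearest to Sertoli-like cells, 58.9 CPM in cattle 1 against at most 57.6 CPM, was 1 UMI in 24 cells. In pig LDHA was highest in macrophage-like cells (276 ± 155 CPM), then lymphocyte-like (184) and germ-like cells (96.6), and lowest in Sertoli-like cells (19.4), and each neighbour in that order overlapped the next. LDHB of cattle ran from endothelial-like (818 CPM), Sertoli-like (618) and myoid-like cells (608), which overlapped, to germ-like (372), Leydig-like (349) and lymphocyte-like cells (340), and lay lowest in macrophage-like cells (213). In pig, Leydig-like cells had the least LDHB (137 ± 32.8 CPM), apart from all the others, which overlapped from 463 to 684 CPM.

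LDHC outside germ-like cells reached 4.28 CPM in cattle (Sertoli-like) and 4.06 CPM in pig (lymphocyte-like, 2 UMIs), and germ-like cells did not overlap the next type in either species. PGK1 of cattle lay between 118 and 191 CPM in all somatic types and at 38.5 CPM in germ-like cells, below Leydig-like cells without overlap. In pig it was lowest in germ-like cells too, at 18.2 CPM, where they overlapped endothelial-like cells (43.7 ± 37.9 CPM), of which pig 1 had only 5 cells. SLC16A3, low in the tubule, was highest in immune cells, with 15.5 and 12.5 CPM in lymphocyte- and macrophage-like cells of cattle and 19.1 and 19.9 CPM in those of pig. The pig lymphocyte-like mean (19.1 ± 24.2 CPM) rests on 1, 0 and 7 UMIs in pigs 1, 2 and 3. SLC16A1 was highest in macrophage-like cells of cattle (42.7 ± 37.4 CPM) and in germ-like cells of pig (45.6 CPM), each overlapping the next type. SLC2A3 led in endothelial-like (25.0 ± 23.3 CPM) and lymphocyte-like cells (17.1 ± 4.72) and was lowest in Sertoli-like cells (0.554 ± 0.480), and SLC2A1 was at most 9.50 ± 6.26 CPM, in Sertoli-like cells, with all types overlapping their neighbours.

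**Figure D5:**
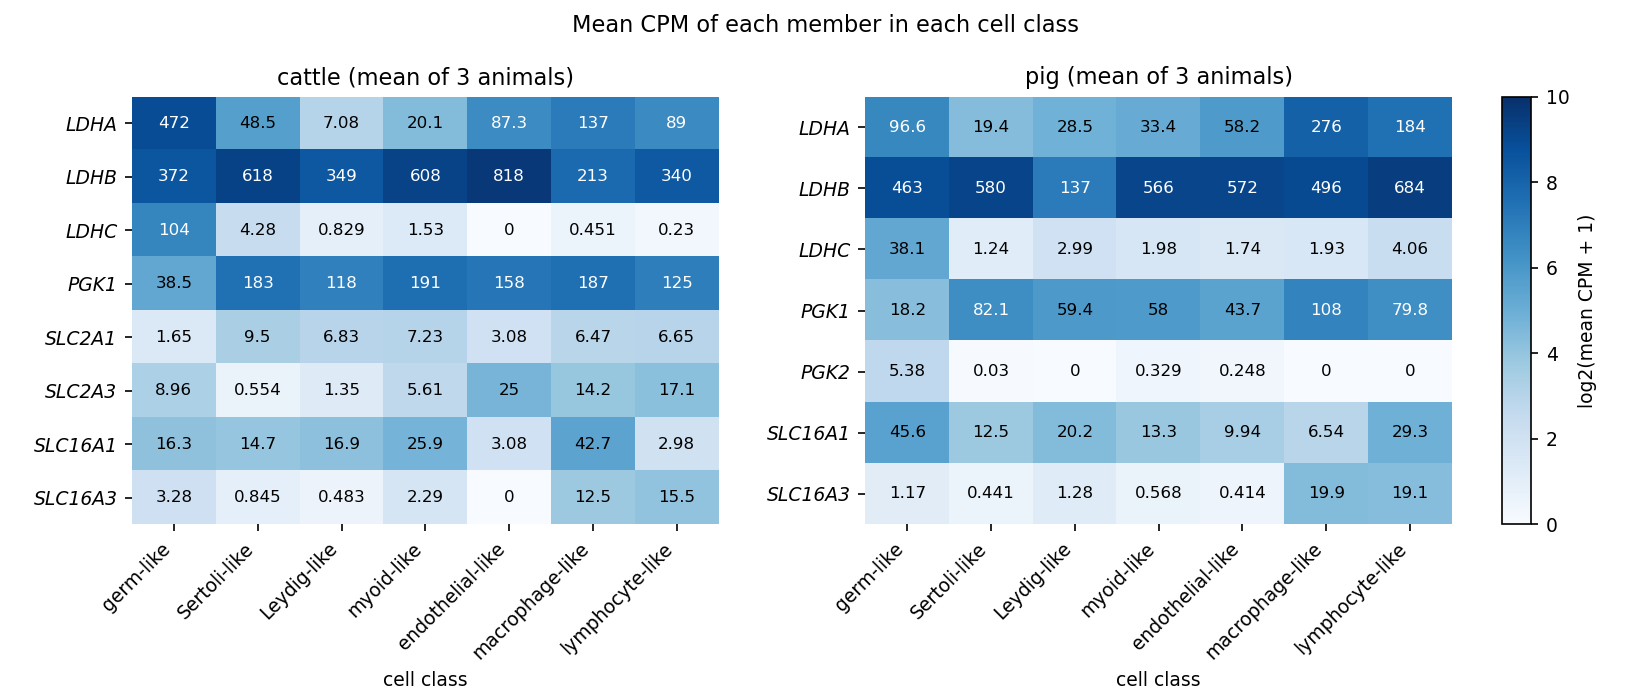
Mean CPM over 3 animals of each member (rows) in each cell type (columns), for cattle (left) and pig (right), with colour on a log2(mean CPM + 1) scale. LDHC stands out in the germ-like columns (104 and 38.1 CPM), where PGK1 is lowest (38.5 and 18.2 CPM).

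Sertoli-like cells were also compared with all other named somatic cells together. In cattle LDHC was called higher and SLC2A3 and SLC16A3 lower, 1 and 2 of 8, against 12.5% and 18.7% of 12960 genes. In pig no member was called higher and SLC16A3 alone lower, 0 and 1 of the 6 members tested, against 4.01% and 8.33% of 13422 genes, and PGK2, with 1 UMI in Sertoli-like and 3 in the other somatic cells, did not pass the filter. Cattle LDHC lay at 3.04, 4.70 and 5.11 CPM in Sertoli-like and at 1.27, 1.02 and 1.13 CPM in other somatic cells, a log2 fold change of 2.06 ± 0.44 (SE; adjusted p = 0.0072). Germ markers, 10 of 10 listed, summed to 91.1, 67.5 and 51.6 CPM in those Sertoli-like cells, with ELAVL2 and DMRTB1 at 0. The sums were 75.0, 51.5 and 99.4 CPM in myoid-like, 65.2, 56.6 and 77.3 in lymphocyte-like and 36.4, 24.9 and 25.0 in Leydig-like cells. Macrophage-like cells had 72.2, 17.5 and 31.1 CPM and endothelial-like cells 177, 21.7 and 36.9 CPM. The part of such germ cell RNA in the LDHC result was not tested. SLC2A3 (-3.06 ± 0.53, adjusted p = 0.0025) and SLC16A3 (-2.61 ± 0.53, adjusted p = 0.0055) were the members lower in cattle Sertoli-like cells, where other somatic cells held 4.24 to 8.87 and 3.05 to 4.24 CPM. All 3 cattle calls were lost without cattle 2 (adjusted p of 0.18 for LDHC, 0.063 for SLC2A3 and 0.11 for SLC16A3) and without cattle 3 (0.18, 0.080 and 0.17).

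In pig, SLC16A3 lay at 4.28, 2.42 and 7.01 CPM in other somatic cells (log2 fold change -3.37 ± 0.91, SE; adjusted p = 0.046) and lost its call without any 1 of the pigs (adjusted p of 0.066, 0.28 and 0.38 without pig 1, 2 and 3). The other somatic cells were a different mix in each pig. Leydig-like cells numbered 84 to 902 per pig, endothelial-like cells 5 to 358 and myoid-like cells 18 to 382. Pig 1 had the most Leydig-like and the fewest endothelial- and myoid-like cells. The part of this mix in the comparison was not tested. Pig LDHA lay at 18.2, 85.0 and 197 CPM in other somatic cells against 9.23, 13.9 and 35.2 CPM in Sertoli-like cells of the same animals. Its log2 fold change of -2.38 ± 0.79 missed the threshold (adjusted p = 0.089) and passed it with the animal as a replicate block (-2.17, adjusted p = 0.0031) and with DESeq2 (-2.36, adjusted p = 0.023). In cattle LDHA lay at 26.3, 25.6 and 38.3 CPM in other somatic cells, and 0.67 ± 0.27 (adjusted p = 0.093) was called with the block (0.65, adjusted p = 0.00089). The block also called cattle SLC16A1 lower in Sertoli-like cells (-0.60, adjusted p = 0.0092; without it -0.48 ± 0.37, adjusted p = 0.37). For LDHB and PGK1 no difference from the other somatic cells was called in either species, with log2 fold changes of 0.24 ± 0.22 and 0.16 ± 0.21 in cattle and 0.35 ± 0.40 and 0.32 ± 0.35 in pig. Pig Sertoli markers summed to 1323 to 9668 CPM in myoid-like, 485 to 5770 in endothelial-like and 635 to 10898 in lymphocyte-like cells. The sums were 908 to 3361 CPM in Leydig-like and 237 to 2916 in macrophage-like cells, beside 16781 to 24340 in Sertoli-like cells. Their part in the pig comparison was not tested.

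Free RNA could be read from the cattle files, which hold barcodes with at most 50 UMIs. In these, LDHB lay at 566, 494 and 501 CPM and PGK1 at 164, 147 and 166 CPM in animals 1, 2 and 3, close to the Sertoli-like levels and above the germ-like ones. LDHA lay at 36.5, 53.0 and 71.0 CPM, above the Sertoli-like level in cattle 2 and 3, and LDHC at 1.97, 10.4 and 14.4 CPM, likewise above it in cattle 2 and 3. Germ-like levels of LDHA and LDHC exceeded the empty droplets in every animal. SLC2A1 lay at 9.85, 9.75 and 4.82 CPM in the empty droplets (10, 16 and 4 UMIs) and at 16.7, 6.48 and 5.32 CPM in Sertoli-like cells. The Sertoli-like level thus lay above the empty droplets in cattle 1, below them in cattle 2 and close to them in cattle 3. In cattle 2 and 3, LDHA lay below the Sertoli-like levels in Leydig-like (6.22 and 7.36 CPM) and myoid-like cells (13.5 and 25.0 CPM). It lay above them in lymphocyte-like (74.7 and 83.5 CPM), macrophage-like (131 and 171 CPM) and endothelial-like cells (101 and 102 CPM). LDHC lay below the Sertoli-like levels in Leydig-like cells (1.04 and 0.491 CPM) and in the other somatic types (0 to 1.35 CPM). How much of each level free RNA makes up was not tested.

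Counted as cells with at least 1 UMI after thinning every cell to 500 UMIs, the differences kept their direction for the abundant members. LDHA was seen in 19.97% ± 2.46 of cattle germ-like cells and 2.28% ± 0.594 of Sertoli-like cells (SD, n = 3; unthinned 79.4% and 14.2%), and LDHC in 3.596% ± 0.831 and 0.259% ± 0.0148 (unthinned 34.1% and 1.75%). In lymphocyte-like cells, which should lack LDHC, it was 0.0142% (unthinned 0.0869%), at median depths of 568.5 to 3553 UMIs. That share came from 2 UMIs in all, both in cattle 3, and 79 of these cells were too shallow to be thinned. PGK1 was seen in 2.12% ± 0.156 of cattle germ-like and 8.73% ± 1.52 of Sertoli-like cells (unthinned 24.7% and 39.5%). For LDHB the cattle shares were 15.5% ± 1.33 and 25.3% ± 3.05, while unthinned they had the reverse order (73.4% and 69.9%). Pig LDHB was seen in 17.5% ± 5.57 and 25.1% ± 3.70 (unthinned 66.4% and 72.9%). In pig the thinned shares were 4.43% ± 1.70 and 0.946% ± 0.732 for LDHA (unthinned 47.0% and 7.55%), 2.24% ± 0.848 and 0.0577% ± 0.0214 for LDHC (unthinned 26.9% and 0.494%) and 0.982% ± 0.160 and 3.99% ± 0.751 for PGK1 (unthinned 18.8% and 25.5%). Pig lymphocyte-like cells, at median depths of 979 to 4590 UMIs, showed LDHC in 0.229% (unthinned 1.76%), from 2 UMIs in all, 1 of them among the 23 such cells of pig 2, which also held Sertoli markers at 10898 CPM. The lymphocyte-like shares of both species are too sparse to serve as a background. In cattle 24 Sertoli-like cells were too shallow to be thinned, and no germ-like cell and no pig cell of these types.

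Other genes of the route were counted from 4 lists, 55 genes in all. LDHD, the one tested gene of the lactate oxidation list, was higher in Sertoli-like cells of both species. Among 23 tested glycolysis genes of cattle 5 were higher and 8 lower in Sertoli-like than in germ-like cells, and among 21 of pig 7 were higher and 4 lower. Of other glucose and monocarboxylate carriers 3 of 6 were higher and 1 lower in cattle, and 5 of 11 and 2 in pig. Genes of pyruvate entry into mitochondria gave 3 higher and 6 lower of 13 in cattle and 3 and 1 of 10 in pig. The lower cattle genes include PGAM2 (glycolysis) and PDHA2 (pyruvate entry). The deep barcode of cattle 3 held 96 of the 102 germ-like UMIs of PGAM2 and all 83 of PDHA2. Over all lists the counts were 12 higher and 15 lower of 43 in cattle and 16 and 7 of 43 in pig, with median log2 fold changes of -0.34 and 0.48 beside -0.32 and -0.16 over all genes. Of all genes tested, 19.2% were called higher and 32.1% lower in cattle and 19.7% and 23.4% in pig.

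The cattle genes with the largest rise in Sertoli-like cells were LDHD, the D-lactate dehydrogenase (log2 fold change 4.17, adjusted p = 0.0093, 62 against 3 UMIs), the pyruvate dehydrogenase kinase PDK4 (3.71, adjusted p = 0.00064), the carrier chaperone EMB (3.62, adjusted p = 0.00023), the hexokinase HK2 (3.06, adjusted p = 0.048, 20 against 1 UMIs) and the monocarboxylate carrier SLC16A7 (2.91, adjusted p = 0.0010). SLC16A7, or MCT2, lay at 18.2, 17.2 and 14.8 CPM in Sertoli-like and at 10.2, 5.36 and 1.88 CPM in germ-like cells. The pooled CPM ratio of LDHD was 6.79 (exact 95% counting interval 2.22 to 33.8) and that of HK2 was 6.57 (1.05 to 272). Lowest against germ-like cells were PDHA2 (-6.00, adjusted p = 0.010), the sperm glycolytic enzyme GAPDHS (-5.43, adjusted p = 5.64e-05), the enolase ENO2 (-4.01, adjusted p = 0.0026), the phosphofructokinase PFKP (-3.95, adjusted p = 5.83e-05) and SLC16A8 (-3.46, adjusted p = 0.043, 1 against 9 UMIs). The PDHA2 value rests on the 1 deep cell of cattle 3 described above. GAPDHS lay at 51.2, 72.7 and 24.6 CPM in germ-like cells and at 0 to 0.810 CPM in Sertoli-like cells.

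In pig the glucose carrier SLC2A10 (3.63, adjusted p = 0.0024), EMB (3.41, adjusted p = 1.46e-05), the pyruvate kinase PKM (3.29, adjusted p = 3.34e-06) and the aldolase ALDOA (3.05, adjusted p = 2.37e-06) were among the genes with the largest rise in Sertoli-like cells. PKM lay at 460, 511 and 547 CPM in Sertoli-like and at 74.7, 94.3 and 37.1 CPM in germ-like cells, and ALDOA at 1095, 1048 and 1076 against 188, 208 and 116.5 CPM. The fructose carrier SLC2A5 was lower in Sertoli-like cells, with 15 UMIs in germ-like and 0 in Sertoli-like cells, at least 3.58-fold lower when 3 counts over the group are set as the floor (adjusted p = 0.032). PFKFB1 (29 against 1 UMIs, adjusted p = 0.016), PFKP (-3.79, adjusted p = 5.86e-05) and ENO4 (74 against 3 UMIs, adjusted p = 0.0036) were lower as well. The pooled germ-like over Sertoli-like ratio was 20.7 (exact 95% counting interval 3.44 to 847) for PFKFB1 and 17.6 (5.81 to 87.5) for ENO4. BSG, the chaperone of MCT1 and MCT4, was higher in cattle Sertoli-like cells (2.105 ± 0.26, SE; adjusted p = 0.00011), whereas its pig value was 0.51 ± 0.30 (adjusted p = 0.19). BSG was named after its values were seen.

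Genes with the pattern most like each member were ranked by Pearson's r of log2(CPM + 10) over the sums of a cell type and animal with at least 20 cells, 21 sums and 6663 genes in cattle and 19 sums and 7308 genes in pig. Points from 1 animal share a library and those of 1 cell type a depth range, and the r are a description. LDHC followed PHF7 (0.990), ERICH2 (0.988) and CCDC181 (0.988) in cattle and ZPBP2 (0.938), CLGN (0.926) and CDK9 (0.925) in pig. LDHA was closest to HMGA1 (0.906), COX5A (0.894) and ITGB1BP1 (0.891) in cattle and to ARF6 (0.912), ABRACL (0.897) and ACTR3 (0.884) in pig. For LDHB these were LCAT (0.818), CCS (0.818) and C1QTNF6 (0.813) in cattle and CHD1 (0.850), H3F3A (0.827) and ACOT9 (0.824) in pig. PGK1 was closest to SCAND1 (0.871), MYL6 (0.869) and HNRPH2 (0.847) in cattle and to NFKBIA (0.857), CFLAR (0.823) and CAPN1 (0.815) in pig, and PGK2 to NXT1 (0.822), SRSF12 (0.819) and PUS3 (0.808). Pig 2 held 41 of the 66 germ-like PGK2 UMIs, 26 of them in 1 cell, so the r of PGK2 rest largely on 1 sum. SLC16A3 went with white blood cell genes, SEPT6 (0.918), LCP1 (0.895) and ITGB7 (0.894) in cattle and ITGAL (0.930), MYO1F (0.926) and NCF1 (0.925) in pig. SLC16A1 was nearest to SNX24 (0.893), DSE (0.848) and VEZF1 (0.830) in cattle and to SSRP1 (0.929), RPGR (0.91) and KIF15 (0.904) in pig. The cattle glucose carriers were nearest to KDELC1 (0.720), MDP-1 (0.714) and METTL1 (0.702) for SLC2A1 and to PQLC3 (0.843), TNIP1 (0.798) and IRF2 (0.788) for SLC2A3.

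Signs of RNA from other cell types moved with the groups to different degrees. Summed Leydig markers lay at 6166, 520 and 841 CPM in cattle germ-like cells and at 5034, 1047 and 1349 CPM in Sertoli-like cells, against 93221 to 146346 CPM in Leydig-like cells. Macrophage markers summed to 131 to 327 and 198 to 375 CPM, respectively. In pig, summed Leydig markers were 87.6 to 844 CPM in germ-like and 234 to 1305 CPM in Sertoli-like cells, and macrophage markers 26.3 to 126 and 17.2 to 150 CPM. The Sertoli markers of pig germ-like cells, given above, were highest in pigs 1 and 2. The part of such RNA in the levels of the members was not tested.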

How the data were processed

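Single-cell RNA-seq libraries of 3 cattle and 3 pig testes were used, 1 per animal, although the labels repeat a testis number within each species. The authors deposited UMI counts per gene and cell barcode made with Cell Ranger 2.1.0 on ARS-UCD1.2 (cattle) and Sscrofa11.1 (pig), per the submitters' processing notes. The study's cell thresholds are not given in the sources used here. The genes and lists were chosen with earlier results of these data known, and rules for naming clusters were completed after clusters had been seen.

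Cells had at least 10% of the UMIs of the 99th percentile barcode among 3000 expected cells, and at least 200 genes. Doublets were removed by Scrublet score, at a rate that grew with the cells called (41 to 613 barcodes per library). Cells of each species were clustered (scanpy 1.11.5, 2000 variable genes without the members, 30 components, 15 neighbours, Leiden resolution 1) and named "-like" from listed markers, at least 3 of them. Counts were summed per animal and cell type and tested with edgeR 4.0.16 (quasi-likelihood, TMM, Benjamini-Hochberg adjustment over all genes, minimum of 10 counts). DESeq2 1.42.0 and the other settings are given at the end. Genes named from the lists were the 5 with the largest change each way among those called, of which some are not reported here. Counting intervals and floors (3 counts) cover counting error only. Same-animal sums deviated together (r of 0.53 to 0.70 in cattle and 0.34 to 0.68 in pig), so the animal pairs them. The main fits and the share tests left this pairing out, and the fits with a replicate block by animal used it.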

Additional observations from a re-analysis of the deposited data

Results flagged for a closer look

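The difference between Sertoli-like and germ-like cells was not the same in cattle and pig for 2 members, by the interaction term of the edgeR fit. For LDHB it was smaller in pig by -1.24 on the log2 scale (adjusted p = 0.014), with the limits given in the report. For SLC16A1 it was -2.43 (adjusted p = 0.0025), with lower levels in Sertoli-like cells in 3 of 3 pigs and in 2 of 3 cattle by CPM. Age, breed and genome build cannot be told apart from the species.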

How the results depend on the processing

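Over 35 member results and 494 values under other settings, 443 kept their direction and side of the threshold, 25 lost the call, 11 gained it and 15 changed sign. In cattle, keeping only clusters led by a marker of their own type gave the same fits as the main setting, so those values add no check. A value without an adjusted p was counted as kept when its direction held. Without TMM, cattle gave 1327 genes higher and 6531 lower, cattle SLC16A1 was -0.20, pig gave 1 member higher, and the species comparison gave 1 member and 0.70 for SLC16A3. DESeq2 and no filter also gave 1 pig member higher. The replicate block by animal gave 4 members and 4264 genes differing between species, -0.056 for LDHA there, 2 members higher with 3074 and 4129 genes higher and lower against other somatic cells in cattle, and 2 members lower with 1082 and 1894 genes in pig. It also called cattle SLC16A1 against germ-like cells (0.67) and against other somatic cells (-0.60), and changed no call of a member beyond these and the LDHA, LDHC and PGK1 calls given in the report. Species SLC16A3 was 0.13 with DESeq2, 0.46 with a minimum of 500 UMIs, 0.22 without doublet removal and 0.00011 at resolution 2. Against other somatic cells of pig, DESeq2 gave 2 members lower, and a minimum of 500 UMIs and no doublet removal gave 0. That minimum also gave 178 genes higher and 679 lower there, and 0.016 for LDHC. The causes were not tested.

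Leaving out 1 animal gave, for cattle, 3 to 4 members higher and 2 to 3 lower, with 1377 to 3694 and 1818 to 4097 genes. For pig it gave 1 to 1 members higher and 3 to 4 lower, with 1804 to 2738 and 1699 to 3003 genes. For the species difference it gave 1 to 2 members and 1359 to 2865 genes, LDHA from -0.38 to 0.48 and SLC16A3 from -1.12 to 0.56. Against other somatic cells it gave 0 to 1 members higher and 0 to 2 lower in cattle, with 505 to 2655 and 898 to 2933 genes, and 0 to 0 lower in pig, with 0 to 619 and 0 to 1305 genes, LDHC from -1.11 to 0.73 and SLC16A1 from -0.36 to 0.012. The pig SLC16A3 share differed by -1.20 to 3.80 percentage points. Fewer samples enter these fits. Depth limits SLC16A3, PGK2 and the glucose carriers.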
